A study of Mus musculus with 12 samples.

Results

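The 8 genes described here encode transcription factors that set the identity of pancreatic epithelial cells: Gata6, Hnf4a, Foxa1, Foxa2, Foxa3, Pdx1, Sox9 and Trp63. They were chosen by symbol as factors of the classical, ductal and squamous identities of pancreatic cancer, by a rule that uses no measured value but was written with earlier results of these data known, and each of the 8 was found once among the 52636 genes of the count files. RNA came from pancreatic ductal adenocarcinomas of KPC mice on a mixed C57BL/6 and 129 background, and every group carries the KPC alleles. In the usual form of this model, the tumour-driving alleles are switched on by a Cre recombinase under a Pdx1 promoter; the labels name no alleles and no driver. The mice carried either 2 intact copies of Cdh11 (KPC/CDH11+/+) or 1 (KPC/CDH11 +/-), and were either left untreated or treated with gemcitabine, a nucleoside analogue that blocks DNA synthesis. The labels used here give no dose, schedule or age. There were 4 groups of 3 mice and 1 tumour library per mouse, 12 libraries in all.

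Each factor stands for a step of pancreatic epithelial identity. The FOXA proteins are pioneer factors that open chromatin in gut-derived epithelia, and HNF4A and GATA6 act with them to maintain an endodermal, glandular programme. PDX1 specifies the embryonic pancreas and persists in beta cells, while SOX9 marks pancreatic progenitors and adult duct cells. In human pancreatic tumours GATA6 and HNF4A are known as factors of the classical subtype, and p63, the product of Trp63, as the driver of the squamous or basal-like subtype.

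Total expected counts per library ran from 39388328 to 56559413 (median 45785246). Levels are given as CPM, counts scaled to library size after TMM adjustment. Epcam and Krt19, which define epithelium, were present in every tumour, at 108 to 520 CPM and 182 to 1060 CPM. Cdh11 averaged 224 ± 58.8 CPM (SD, n = 3) in untreated wild-type and 112 ± 37.4 CPM in untreated heterozygous tumours, but 109 ± 41.7 and 107 ± 34.8 CPM in the treated groups. Its levels did not overlap between the genotypes in untreated mice, where 15.8% of all genes did not, and overlapped in treated mice. In edgeR the log2 fold change of Cdh11 for genotype was -1.0 ± 0.37 (SE; adjusted p = 0.329) in untreated mice. In treated mice it was -0.02 ± 0.37 (adjusted p = 0.996). Xist exceeded Y-linked genes in 6 libraries: 2 untreated wild-type, 1 untreated heterozygous and all 3 treated wild-type. The remaining 6 were of the Y-linked kind, among them all 3 treated heterozygous libraries, so in treated mice genotype and sex cannot be told apart. Because whole tumours were sequenced, fewer cells of a type and less RNA per cell cannot be told apart for any value below.

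Per kilobase of exon, Hnf4a was the most abundant of the 8 factors, with a median of 18.8 CPM per kb over the 12 tumours. Sox9 followed at 12.02, Foxa2 at 10.6, Pdx1 at 8.60, Gata6 at 4.51, Foxa3 at 4.19, Foxa1 at 0.948 and Trp63 at 0.0199 CPM per kb. Hnf4a exceeded Sox9 in 10 of 12 tumours, and Foxa1 exceeded Trp63 in 12 of 12. Gata6 and Foxa3 were not ordered: Gata6 was the higher in 6 of 12. Trp63 was thus the lowest of the 8, and Foxa1 the next lowest.

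The start regions of Hnf4a and Foxa1 are shown because Hnf4a, the most abundant member, has 2 distant starts that a gene count adds together, and because Foxa1 varied most among tumours of the 7 members that every library detected. Sequences and starts are those of RefSeq on GRCm38.p6, for which 5 of the 8 members had windows that were used. Each stretch below ends before its start and leaves out bases that GENCODE M21 annotates as exon. The upstream start of Hnf4a, known as the pancreatic-type promoter P2, is preceded by chr2:163506607-163506807 on the plus strand.
Hnf4a upstream: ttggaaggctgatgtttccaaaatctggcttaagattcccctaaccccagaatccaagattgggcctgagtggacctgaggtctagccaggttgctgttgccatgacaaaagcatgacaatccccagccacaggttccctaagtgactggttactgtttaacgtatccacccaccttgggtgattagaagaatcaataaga
The downstream start, known as the liver-type promoter P1, is preceded by chr2:163546943-163547154 on the plus strand.
Hnf4a downstream: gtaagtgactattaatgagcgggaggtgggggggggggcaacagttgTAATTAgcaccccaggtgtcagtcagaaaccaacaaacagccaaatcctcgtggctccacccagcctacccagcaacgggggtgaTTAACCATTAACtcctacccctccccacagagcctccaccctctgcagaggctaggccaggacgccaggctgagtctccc
The RefSeq start of Foxa1 lies inside the gene as GENCODE M21 draws it, downstream of the outermost start, and is preceded by chr12:57546122-57546361, here on the minus strand as the gene reads.
Foxa1: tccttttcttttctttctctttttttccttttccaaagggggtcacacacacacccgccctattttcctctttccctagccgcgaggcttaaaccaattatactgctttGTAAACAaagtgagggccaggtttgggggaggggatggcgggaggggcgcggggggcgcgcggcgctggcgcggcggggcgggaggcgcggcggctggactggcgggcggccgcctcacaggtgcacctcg
Capitals mark matches, on either strand, to a forkhead motif (TGTTTAC), the HNF1 motif and a PDX1 core (TAATTA), which do not overlap here. Among 32851 start windows of 250 bases, 3.17% held the forkhead motif, 0.131% the HNF1 motif and 4.84% the PDX1 core. The downstream Hnf4a window held the HNF1 motif and the PDX1 core, the upstream one none of the 3, and the Foxa1 window the forkhead motif. A match describes these letters only. The gene counts cannot say which Hnf4a start was in use.

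**Figure D1:**
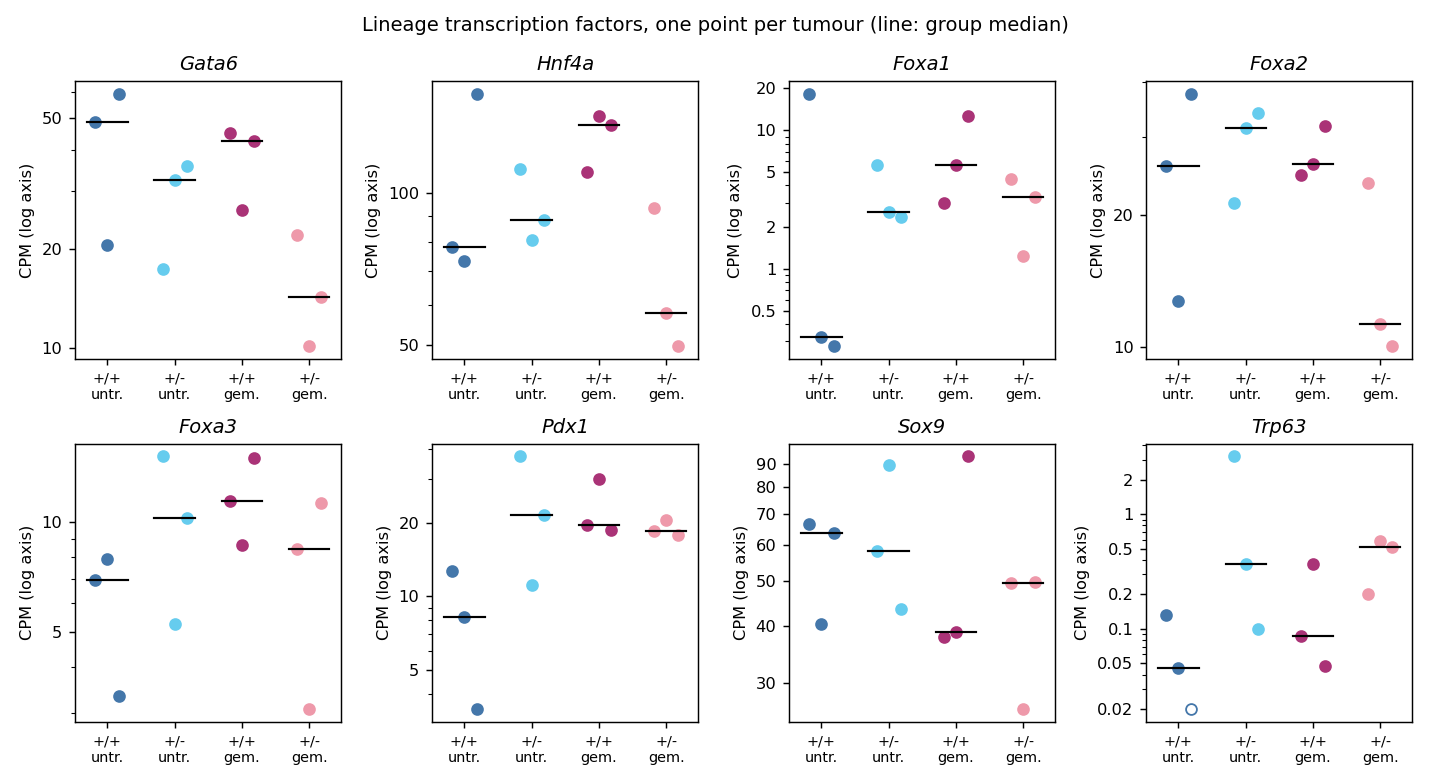
CPM (log axis) of each factor in every tumour, 1 point per mouse in the 4 groups, with the group median as a line; untr. is untreated, gem. is gemcitabine and the open point is a library with 0 counts. Gata6, Hnf4a and Foxa2 lie lowest in the treated heterozygous tumours, and Pdx1 in the untreated wild-type tumours.

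None of the 8 factors passed an adjusted p of 0.05 in edgeR in any of the 6 comparisons made, and DESeq2 called 1, Trp63 for genotype in untreated mice. Few genes of any kind passed in edgeR: 0.0166% of all 24065 genes tested for genotype in untreated mice, 0.00416% for the treated genotypes, 0% for the wild-type response to gemcitabine, 0.00831% for the heterozygous response, 0.00831% for the difference between those gemcitabine effects and 0.0332% for genotype averaged over treatments. At an unadjusted p under 0.05 there were 2 of 8 members for genotype in untreated mice, against 12.2% of all genes, and 2 in treated mice, against 7.55%. For gemcitabine there was 1 member in wild-type mice, against 8.6% of genes, and 1 in heterozygous mice, against 7.9%. The difference of effects had 1, against 12.7%, and the genotype average 3, against 7.67%. DESeq2 called 2.73% of the genes it gave an adjusted p for genotype in untreated mice, 0.985% for the treated genotypes, 0.435% and 0.661% for gemcitabine in wild-type and heterozygous mice, 2.79% where those effects were compared and 1.21% for genotype averaged over treatments. The comparisons share groups, so their values for a gene are not independent of each other. The descriptions that follow are of measured levels, most of which the test does not separate from the spread between mice.

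Gata6 lies at chromosome 18, 11052064 to 11085635 on the plus strand. It reached 48.4, 20.5 and 59.2 CPM in the 3 untreated wild-type tumours and 17.4, 32.5 and 35.6 CPM in the untreated heterozygous ones. After gemcitabine it was 44.9, 26.3 and 42.4 CPM in wild-type and 22.1, 10.1 and 14.3 CPM in heterozygous tumours. The treated heterozygous values all lay below the treated wild-type ones, while the untreated genotypes overlapped. In treated mice the log2 fold change of heterozygous against wild-type was -1.29 ± 0.43 (SE; 95% interval -2.24 to -0.34; adjusted p = 0.548 in edgeR). Averaged over treatments it was -0.94 ± 0.30 (adjusted p = 0.474), with an untreated value of -0.58 ± 0.43.

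Hnf4a (chromosome 2, 163506808 to 163572910, plus strand) encodes a nuclear receptor that drives metabolic and secretory genes of liver, gut and pancreas. It stood at 78.4, 73.6 and 158 CPM in untreated wild-type tumours and at 112, 80.7 and 88.4 CPM in untreated heterozygous tumours. Under gemcitabine the wild-type tumours had 111, 143 and 137 CPM and the heterozygous ones 93.6, 58.0 and 49.7 CPM. As with Gata6, the treated genotypes did not overlap and the untreated ones did. The treated genotype difference was -0.95 ± 0.32 on the log2 scale (95% interval -1.66 to -0.25; adjusted p = 0.548), and the untreated one -0.14 ± 0.32.

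Foxa2 (chromosome 2, 148042877 to 148046969, minus strand), a pioneer factor of endoderm and of beta cells, showed the same order in treated mice. It was at 24.6, 26.1 and 31.8 CPM in treated wild-type and at 23.6, 11.3 and 10.1 CPM in treated heterozygous tumours. The highest heterozygous value was thus just under the lowest wild-type value. The untreated tumours had 25.8, 12.7 and 37.7 CPM in wild-type and 21.2, 31.5 and 34.1 CPM in heterozygous mice, which overlapped. In treated mice genotype gave a log2 fold change of -0.88 ± 0.41 (adjusted p = 0.680), and gemcitabine in heterozygous mice gave -0.95 ± 0.41 (adjusted p = 0.618).

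Gata6, Hnf4a and Foxa2 were the 3 of 8 members whose treated genotypes did not overlap, all with heterozygous tumours lower. Of all genes 13.7% did not overlap in that comparison, and 6.59% did so with heterozygous tumours lower. The median log2 fold change of the 8 members was -0.75 there, beside -0.032 for all genes tested. Duct epithelium markers summed to 5172 to 8606 CPM in treated heterozygous and 8183 to 10610 CPM in treated wild-type tumours, with none of the 16 at 0 throughout a group. Of the 16, 11 were lower and 5 higher in treated heterozygous tumours, with a median log2 fold change of -0.30. At an unadjusted p under 0.05 there were 3, all lower, against 7.55% of all genes. Epcam was about level, at 290, 265 and 308 CPM in treated heterozygous and 221, 311 and 310 CPM in treated wild-type tumours. Of the 3, Cdh1, the epithelial cadherin, had a log2 fold change of -0.96 ± 0.25 (adjusted p = 0.546) and Krt19, a duct keratin, -1.13 ± 0.42 (adjusted p = 0.589). Leukocyte markers summed to 984 to 2068 CPM in the heterozygous and 428 to 976 CPM in the wild-type group, with none of the 12 at 0 throughout. All 12 were higher in treated heterozygous tumours, with a median log2 fold change of 1.18. In edgeR 5 of them had an unadjusted p under 0.05. DESeq2 called 2 leukocyte and 0 duct epithelium markers, against 0.985% of all genes. The part of epithelial or leukocyte content in the 3 differences was not tested. With the Xist or Y-linked class of the library as a covariate, the treated genotype values were -1.08 for Gata6, -0.41 for Hnf4a and -0.53 for Foxa2. All treated wild-type libraries were of the Xist kind and all treated heterozygous ones of the Y-linked kind. The class effect was thus estimated from the untreated libraries alone, and these values do not separate genotype from sex.

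**Figure D2:**
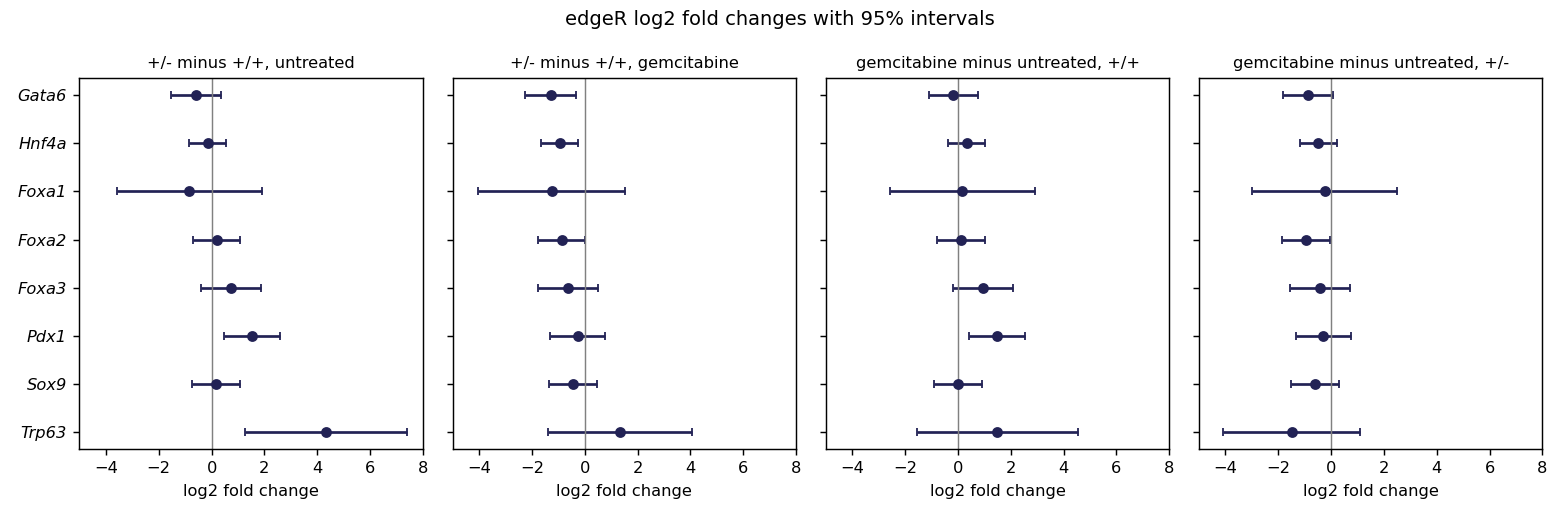
Log2 fold changes of the 8 factors (points) with 95% intervals from edgeR (bars) in 4 comparisons, with 0 as a grey line. In treated mice 7 of 8 points lie below 0 for genotype, and the intervals of Foxa1 and Trp63 are the widest.

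Pdx1 (chromosome 5, 147269959 to 147275848, plus strand) had its lowest levels in untreated wild-type tumours, at 12.7, 8.23 and 3.47 CPM. The untreated heterozygous tumours had 37.3, 11.1 and 21.5 CPM, the treated wild-type ones 19.6, 30.1 and 18.6 CPM, and the treated heterozygous ones 18.5, 20.5 and 17.8 CPM. All 6 treated tumours thus lay above all 3 untreated wild-type tumours. In wild-type mice gemcitabine gave a log2 fold change of 1.49 ± 0.49 (95% interval 0.42 to 2.55; adjusted p = 0.559). Genotype in untreated mice gave 1.52 ± 0.49 (95% interval 0.45 to 2.59; adjusted p = 0.274), with 1 heterozygous tumour inside the wild-type range. In heterozygous mice gemcitabine gave -0.30 ± 0.48, and the difference between the 2 gemcitabine effects was -1.78 ± 0.68 (adjusted p = 0.319).

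Foxa3 (chromosome 7, 19013284 to 19023538, minus strand), the FOXA member best known from liver and gut, followed a similar order. It was at 6.95, 7.93 and 3.33 CPM in untreated wild-type and 15.1, 5.25 and 10.2 CPM in untreated heterozygous tumours. Treated wild-type tumours had 11.4, 8.67 and 14.9 CPM and treated heterozygous ones 8.42, 3.08 and 11.3 CPM. Gemcitabine in wild-type mice, where the groups did not overlap, gave a log2 fold change of 0.94 ± 0.52 (adjusted p = 0.625). Pdx1 and Foxa3 were the 2 of 8 members without overlap in that comparison, both higher after treatment, against 13.7% of all genes and 6.53% in that direction. No member separated the groups for genotype in untreated mice or for gemcitabine in heterozygous mice, where 15.8% and 12.7% of all genes did.

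Markers of other tissues differed between the groups that these values compare. Acinar markers summed to 11.7 to 703 CPM in untreated wild-type tumours and 10.4 to 34.5 CPM in untreated heterozygous tumours, where 5 of 22 were at 0 throughout, and to 6.62 to 330 CPM and 5.92 to 17.8 CPM in the treated wild-type and heterozygous groups. Islet markers summed to 23.1 to 307 CPM in untreated wild-type tumours against 4.07 to 11.7 CPM in untreated heterozygous, 4.28 to 29.7 CPM in treated wild-type and 3.63 to 89.2 CPM in treated heterozygous tumours. For gemcitabine in heterozygous mice all 13 islet markers tested had a positive log2 fold change, with a median of 2.90, where Pdx1 had -0.30. None of the islet markers was called in edgeR, with 6 at an unadjusted p under 0.05, against 7.9% of all genes. DESeq2 called 1, against 0.661% of all genes. For genotype in untreated mice, 11 of 13 islet and 16 of 20 acinar markers had an unadjusted edgeR p under 0.05, all lower. That compares with 12.2% of all genes. DESeq2 called 7 islet and 10 acinar markers there, all lower, against 2.73% of all genes. For gemcitabine in wild-type mice, 7 islet markers, all lower, and 0 acinar markers had such a p, against 8.6% of all genes. DESeq2 called 0 of either, against 0.435%. Ins2, an insulin gene of the beta cells that also express Pdx1, was at 0.26, 29.5 and 8.62 CPM in the untreated wild-type tumours, whose Pdx1 levels were low. Stroma markers summed to 11470 to 17750 CPM in untreated wild-type and 4331 to 7214 CPM in untreated heterozygous tumours. The part of this composition in the Pdx1 and Foxa3 values was not tested.

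Foxa1 (chromosome 12, 57540628 to 57546916, minus strand) had the widest range within a group among the members that every library detected. Untreated wild-type tumours had 18.3, 0.323 and 0.276 CPM, that is 831, 14 and 14 counts, a 66.4-fold range that covers both the highest and the lowest tumour of the series. The other groups were narrower, with 5.64, 2.57 and 2.36 CPM in untreated heterozygous, 3.00, 5.65 and 12.7 CPM in treated wild-type and 4.44, 1.23 and 3.31 CPM in treated heterozygous tumours. The log2 fold change for genotype in untreated mice was -0.84 ± 1.25, and without the first untreated wild-type tumour it was 3.55. Of its 6 comparisons, 5 changed sign when 1 library or another was left out, so its fitted values give no settled direction.

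Sox9 (chromosome 11, 112782224 to 112787760, plus strand) was the member whose 4 group means lay closest together in ratio, between 41.9 and 63.7 CPM. It had 66.4, 40.5 and 63.5 CPM in untreated wild-type and 58.1, 89.3 and 43.5 CPM in untreated heterozygous tumours. Treated wild-type tumours had 37.9, 38.8 and 93.3 CPM and treated heterozygous ones 49.6, 26.4 and 49.8 CPM. All 4 groups overlapped. Its log2 fold changes lay between -0.60 ± 0.41 for gemcitabine in heterozygous mice and 0.16 ± 0.41 for genotype in untreated mice, with an interval of -0.73 to 1.06 for the latter.

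Trp63 (chromosome 16, 25683763 to 25892102, plus strand) was close to absent in most tumours. Untreated wild-type tumours had 6, 2 and 0 counts, where a count of 0 allows up to 0.0592 CPM. Untreated heterozygous tumours had 146, 17 and 5 counts, treated wild-type ones 4, 16 and 2, and treated heterozygous ones 10, 25 and 26. The largest value, 3.21 CPM, came from 1 untreated heterozygous tumour, and the groups overlapped in untreated mice. The log2 fold change for genotype was 4.32 ± 1.40 in untreated mice (95% interval 1.26 to 7.39; adjusted p = 0.274 in edgeR), and 1.94 without that tumour. DESeq2 gave 4.36 with an adjusted p of 0.0295. The gene count does not separate the TA form of p63 from the deltaN form of squamous cells.

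The tumour with the most Trp63 RNA had little Krt5, but its summed squamous genes lay within the range of the series. The 24 squamous genes described in the next paragraph summed to 496 CPM in it, between 316 and 918.5 CPM for all tumours. Krt5, the basal keratin, had 4 counts there, and Krt14, its partner, was at 3.51 CPM, between the 0.02 and 47.9 CPM of all 12 tumours. Fat2, a cadherin of keratinocytes, was at 21.6 CPM in that tumour, against 0.35 to 16.2 CPM in the rest. The same tumour had 39.4 CPM of Pgc, the pepsinogen of stomach glands, beside at most 4.99 CPM elsewhere, and stomach and intestine markers summed to 632 CPM there, the highest of the series. The highest Krt5 and Krt14 instead fell in a treated wild-type tumour with 16 counts of Trp63. These genes were read after the Trp63 values were seen.

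Genes of the squamous programme were taken as a list of 24, of which 20 were abundant enough to test. None passed in edgeR in any comparison; at an unadjusted p under 0.05 there were 5 for genotype in untreated mice, 3 in treated mice, 2 for gemcitabine in wild-type and 3 in heterozygous mice, against 12.2%, 7.55%, 8.6% and 7.9% of all genes. DESeq2 called 3, 3, 0 and 1 of them in the same order, against 2.73%, 0.985%, 0.435% and 0.661% of all genes. The median log2 fold changes were 0.46, -0.65, 0.59 and -0.09 in that order. Ivl, an envelope protein of differentiated squamous cells, was lower in heterozygous tumours without overlap in both treatments, at 23.1 to 34.0 against 57.6 to 95.1 CPM in untreated and 13.7 to 40.3 against 62.0 to 114 CPM in treated mice. Its genotype average was -1.61 ± 0.27 (adjusted p = 0.174 in edgeR and 2.92e-05 in DESeq2). Dsc3, a desmosomal cadherin, was at 0.12, 4.19 and 4.60 CPM in the treated heterozygous tumours and at 0.24 CPM or less in the other 9, with a treated genotype value of 4.87 ± 1.18 (adjusted p = 0.546 in edgeR and 0.00203 in DESeq2). Krt17, a stress keratin, was at 1.92, 7.59 and 3.49 CPM in untreated wild-type tumours and at 0.79 CPM or less in the other 9. For genotype in untreated mice it had -5.60 ± 1.38 (adjusted p = 0.206 in edgeR and 0.000334 in DESeq2). Krt13, a keratin of mucosal squamous epithelium, had a genotype average of -3.64 ± 0.88 (adjusted p = 0.307 in edgeR and 0.00111 in DESeq2) and was below 1 CPM in 10 of 12 tumours. Lgals7, a galectin of stratified epithelium, had 3.17 ± 0.97 for genotype in untreated mice (adjusted p = 0.266 in edgeR and 0.0325 in DESeq2), with 1 tumour at 4.67 CPM and the rest at 0.769 CPM or less. The named squamous genes thus did not share 1 direction.

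The glandular genes known to be high in classical tumours were taken as a list of 26, of which 24 were tested. None passed in edgeR; 4, 5, 4 and 3 had an unadjusted p under 0.05 for genotype in untreated and in treated mice and for gemcitabine in wild-type and in heterozygous mice, against 12.2%, 7.55%, 8.6% and 7.9% of all genes. DESeq2 called 0, 0, 1 and 0 of them, the 1 being Muc13, against 2.73%, 0.985%, 0.435% and 0.661% of all genes. For the genotype average it called St6galnac1 alone, against 1.21% of all genes. For genotype 20 of 24 were higher in untreated heterozygous tumours, with a median log2 fold change of 0.88, while 21 of 24 were lower in treated heterozygous tumours, with a median of -0.88. For gemcitabine 19 of 24 were higher in wild-type mice (median 0.83) and 21 of 24 lower in heterozygous mice (median -0.94). These comparisons share groups, and the medians over all genes tested were 0.044, -0.032, 0.011 and -0.031. Stomach and intestine markers, of which 8 were tested, had medians of 1.10, -1.20, 1.45 and -0.96 in the same order. Stroma markers had -1.40, -0.01, -0.76 and 0.37, with 12 of 12 lower for genotype in untreated mice, and leukocyte markers -0.75, 1.18, -0.91 and 1.34, with 12 of 12 higher in treated heterozygous tumours. The part of these tissues in the classical values was not tested. Muc1, a mucin of the duct surface, was at 127, 64.9 and 38.4 CPM in untreated wild-type tumours and at 208, 256 and 225 CPM in treated wild-type ones, a log2 fold change of 1.58 ± 0.58 (adjusted p = 0.559). Tspan8, a tetraspanin of gut epithelium, was at 70.1 to 104 CPM and 149 to 248 CPM in the same groups, a change of 1.05 ± 0.33 (adjusted p = 0.559). Muc5ac, the gastric mucin, reached 2637 CPM in 1 untreated heterozygous tumour and 6.52 to 114 CPM in the other 11. For genotype in treated mice the smallest p of the list was that of St6galnac1, a mucin glycosyltransferase, with a log2 fold change of 6.62 ± 1.82 (adjusted p = 0.546), opposite in sign to most of the list. It was at 0.115 CPM or less in all 6 wild-type tumours, at 1.49, 1.49 and 2.07 CPM in untreated and at 3.01, 0 and 11.2 CPM in treated heterozygous tumours, and its genotype average was 6.02 ± 1.27 (adjusted p = 0.251 in edgeR and 0.00832 in DESeq2). Plac8 came next, with -1.29 ± 0.40 (adjusted p = 0.546). Muc13, an intestinal mucin, had 4.94 ± 1.49 for gemcitabine in wild-type mice (adjusted p = 0.559 in edgeR and 0.0103 in DESeq2), with 38.7, 0.395 and 7.001 CPM in treated and 0.573, 0.161 and 0.75 CPM in untreated tumours, which overlapped.

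A list of 22 other factors of duct and classical identity was tested whole. None passed in edgeR, with 6, 2, 3 and 4 at an unadjusted p under 0.05 in the same order, against 12.2%, 7.55%, 8.6% and 7.9% of all genes. DESeq2 called Nr5a2 for genotype in untreated mice and Creb3l1 for the genotype average, 1 of 22 in each, against 2.73% and 1.21% of all genes. The medians of the 22 factors were 0.37, -0.46, 0.57 and -0.35. Klf5, a Krüppel-like factor of gut epithelium, was at 43.0, 53.8 and 70.7 CPM in treated wild-type and 36.7, 26.2 and 20.8 CPM in treated heterozygous tumours, a log2 fold change of -1.0 ± 0.42 (adjusted p = 0.641). Creb3l1, a factor of secretory cells, was lower in heterozygous tumours without overlap in both treatments, at 3.04 to 9.88 against 11.5 to 29.7 CPM in untreated and 4.31 to 6.78 against 8.02 to 25.1 CPM in treated mice. Its genotype average was -1.38 ± 0.38 (adjusted p = 0.386 in edgeR and 0.0364 in DESeq2). Elf3, an epithelial ETS factor, had 1.28 ± 0.56 for gemcitabine in wild-type mice (adjusted p = 0.577) and -2.32 ± 0.80 for the difference of effects (adjusted p = 0.288). Nr5a2, which serves acinar cells, had -3.33 ± 1.02 for genotype in untreated mice (adjusted p = 0.266 in edgeR and 0.0133 in DESeq2), where acinar markers had a median of -7.60. Ptf1a, the master factor of acinar cells, was at 0.34 CPM or less in every tumour.

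The factors fell into different patterns across the 12 tumours. Over 28 pairs, correlations of log2 CPM were highest for Gata6 and Foxa2 (Pearson r = 0.842, permutation p = 0.00055, 0.0154 after Benjamini-Hochberg adjustment over the pairs; Spearman rho = 0.811, permutation p = 0.00213, adjusted 0.0596). Without the 2 tumours farthest from the median of Gata6 the r was 0.683, after subtraction of group means 0.865, and within the Xist and Y-linked libraries 0.740 and 0.900. Hnf4a and Foxa2 followed, with r = 0.772 (permutation p = 0.00327, adjusted 0.0458) and rho = 0.678 (permutation p = 0.0182, adjusted 0.170); without 2 tumours r was 0.593, and within the Xist and Y-linked libraries 0.590 and 0.853. The pair of Gata6 and Hnf4a was less stable, with r = 0.646 (permutation p = 0.0246, adjusted 0.124) and rho = 0.546 (permutation p = 0.0712, adjusted 0.285). Its r was 0.303 without 2 tumours, 0.364 after subtraction of group means, and 0.0151 and 0.792 within the Xist and Y-linked libraries. By Pearson r, no pair other than Gata6 with Foxa2 and Hnf4a with Foxa2 had an adjusted permutation p under 0.05. By Spearman rho no pair had one. The permutations ran over all 12 tumours without regard to group or sex, so differences shared between groups enter these p-values. Trp63 and Gata6 had r = -0.688 (permutation p = 0.0116, adjusted 0.0901) and rho = -0.713 (permutation p = 0.0112, adjusted 0.157). Without 2 tumours that r was -0.675, after subtraction of group means -0.66, and within the Xist and Y-linked libraries -0.959 and -0.547. Trp63 and Pdx1 had r = 0.707 (permutation p = 0.0129, adjusted 0.0901) and rho = 0.580 (permutation p = 0.0528, adjusted 0.285). That r was 0.513 without 2 tumours and 0.682 after subtraction of group means. Trp63 was close to absent in most tumours, so its correlations rest on few counts. Foxa1 had an r of 0.204 with Foxa2 and 0.564 with Foxa3, and Foxa2 an r of 0.0393 with Foxa3, so the 3 FOXA genes did not vary as 1 group.

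**Figure D3:**
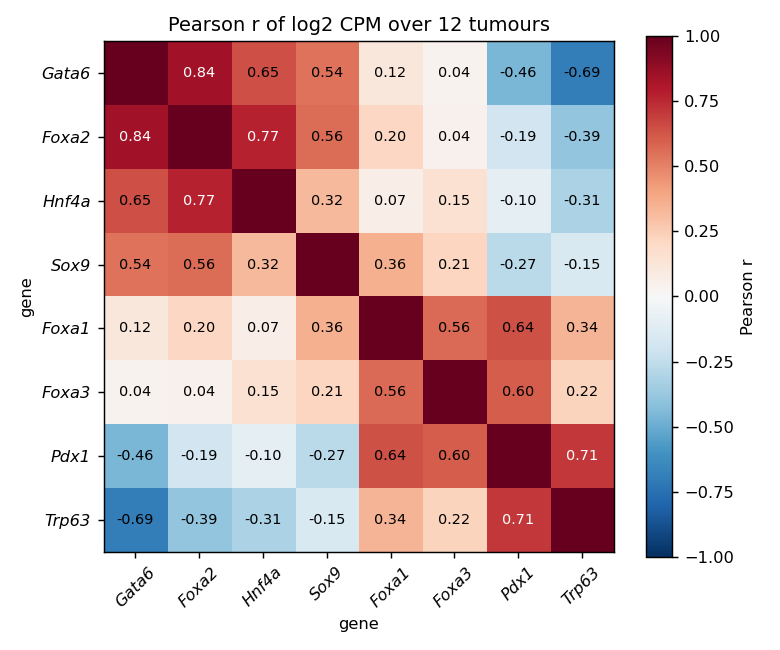
Pearson r between the log2 CPM of the 8 factors over the 12 tumours, from -1 (blue) to 1 (red), both axes listing the genes. Foxa2 has r = 0.84 with Gata6 and 0.77 with Hnf4a, Gata6 and Hnf4a have 0.65, which drops to 0.30 without 2 tumours, and Gata6 and Trp63 have -0.69. Values for Trp63 rest on few counts.

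With predicted (Gm), RIKEN and accession-named genes left out, the genes most like each factor were read off by Pearson r over the 12 tumours. They came from 17542 genes with a mean of at least 1 CPM. For Gata6 they included Dzip1l (0.929) and Ppp2r5b (0.921), and for Foxa2 Zfpm1 (0.956) and Tnks1bp1 (0.932). For Hnf4a they were Ankrd11 (0.856), Zfpm1 (0.836) and Sh3rf1 (0.823). Foxa2 shared Zfpm1 with Hnf4a. For Pdx1 they were Kif12 (0.952), B4galnt4 (0.924) and Slc10a1 (0.912). For Foxa3 they were Onecut3 (0.875), a hepatic and pancreatic factor, Fermt1 (0.852) and Ccnd2 (0.849). For Foxa1 they were Rnu2-10 (0.938), Rbm26 (0.911) and Actr8 (0.903). For Sox9 they were Appl2 (0.919), Plekhn1 (0.912) and Klhl21 (0.911), and for Trp63 they were Arhgef38 (0.879), Spdya (0.835) and Chn2 (0.833). These are the ends of a ranking of 17542 genes over 12 tumours, given as a description.

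Several members have a gene on the opposite strand within 5 kb of their start or overlapping them. The antisense gene 1010001N08Rik, which overlaps the first bases of Gata6, had an r of 0.933 with it (rho = 0.888), the highest of the 17542 genes, and 0.942 and 0.880 within the Xist and Y-linked libraries. It was at 0.722 to 1.24 CPM in treated heterozygous and 1.79 to 4.17 CPM in treated wild-type tumours, the same order as Gata6. Plut, which overlaps the start of Pdx1 on the other strand, had an r of 0.853 with it (rho = 0.790), 0.666 without 2 tumours, and 0.951 and 0.550 within the libraries of each sex. Hnf4aos had an r of 0.639 with Hnf4a (rho = 0.699) and 0.353 and 0.561 within the libraries of each sex. Sympk beside Foxa3 had 0.225 and BC006965 beside Sox9 had 0.254. Neither overlaps its member, while 1010001N08Rik, Plut and Hnf4aos overlap theirs. Neighbours on the other strand thus did not all vary with the member. The snRNA gene Gm24928 inside Trp63 had 1 count in all 12 libraries. The kit keeps strand, but no source used here says whether the counting did, so reads of a member and of an overlapping antisense gene cannot be told apart.

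**Figure D4:**
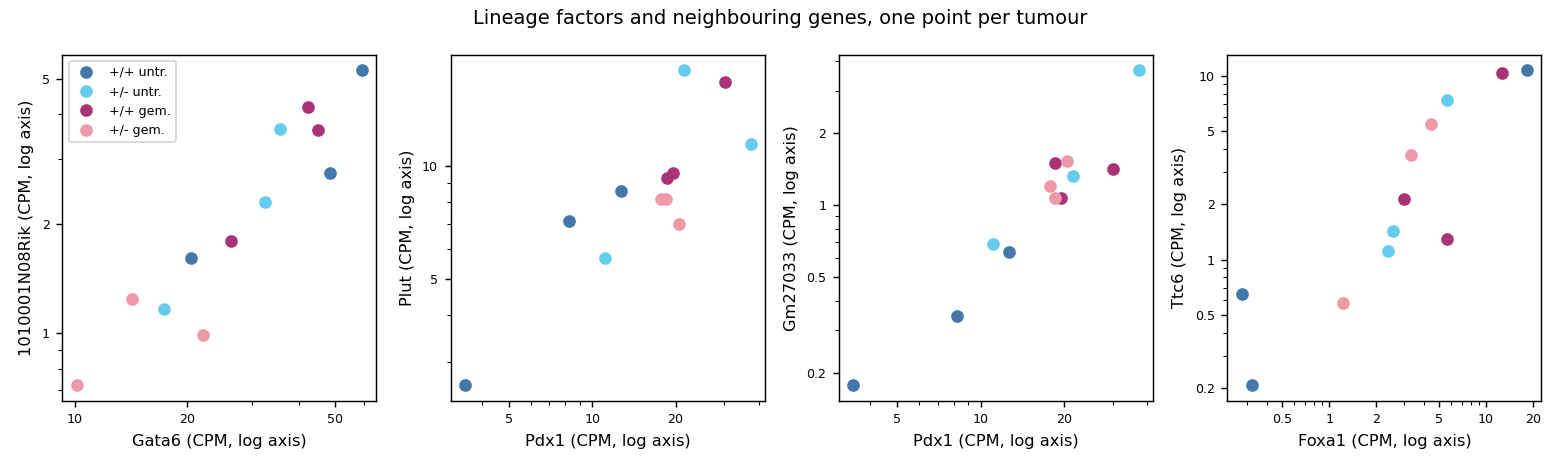
CPM of a neighbouring gene against CPM of the factor in each of the 12 tumours (both log axes), coloured by group. 1010001N08Rik follows Gata6 with r = 0.933, Plut follows Pdx1 with 0.853, and the same-strand or more distant neighbours Gm27033 and Ttc6 follow Pdx1 and Foxa1 with 0.960 and 0.886.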

How the data were processed

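Per the submitters' processing notes, the authors made expected counts per Ensembl gene with RSEM on GRCm38; the deposited expected counts were whole numbers, and the version, aligner and annotation are not given in the sources. A read with several mapping places is divided among them by RSEM. Extraction was from snap-frozen tumours, and libraries were stranded total RNA after ribosomal RNA depletion, per the labels' protocols. GENCODE M21 gave a symbol for 52403 of 52636 IDs.

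The gene test was edgeR 4.0.16 under R 4.3.3 (filterByExpr, TMM, robust quasi-likelihood, 1 mean per group, all 12 libraries), with the Benjamini-Hochberg adjusted p over 24065 genes. A ± is the SE of a log2 fold change or the SD of a level. Correlations used log2 CPM (prior count 2) and 100000 permutations, two-sided. Alternatives were DESeq2 1.42.0, its size factors, no filter, a replicate block, only the groups compared, each library left out and, added after seeing the data, a covariate for Xist against Y-linked genes. The gene test was also run on simulated data, and the outcome is not reported here.

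Members and lists were chosen with earlier results of these data known. The rule for named genes took all members, Cdh11, list genes that passed or had the 4 smallest p per comparison, the 3 genes most like each member, and opposite-strand neighbours. Of the list genes the text gives a part, including every one that DESeq2 called among the squamous, classical and duct lists; 1 gene among those most like a member is not reported here. Values of a few other list genes and neighbours are given where the text says so, or as markers of composition.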

Additional observations from a re-analysis of the deposited data

How the results depend on the processing

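Of 654 alternative values of the members' 48 log2 fold changes, 609 kept direction and side of the threshold, 44 changed sign and 1, Trp63 in untreated mice under DESeq2 (adjusted p = 0.0295), became a call. DESeq2 called 672, 235, 97, 168, 600 and 316 genes for genotype in untreated mice, genotype in treated mice, gemcitabine in wild-type mice, gemcitabine in heterozygous mice, the difference of effects and the genotype average, where edgeR called 4, 1, 0, 2, 2 and 8; the cause was not tested. Without a filter, genotype in untreated mice gave 10; with only the groups compared it gave 2 and treated genotype 12. With the sex covariate treated genotype gave 0 and the average 3. Leaving out 1 library gave 2 to 12 for untreated genotype, 0 to 3 for treated genotype, 2 to 9 for gemcitabine in heterozygous mice, 2 to 7 for the difference and 3 to 13 for the average.

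The main test did not treat the replicate numbers as pairs of mice. After subtraction of group means, 18 same-numbered pairs of libraries had r from -0.247 to 0.173. Pairs with different numbers were not compared, so these values do not settle whether the numbers pair the mice. With the replicate block, treated genotype gave 0 calls and the average 4, Foxa1 in untreated mice 0.29 and the Foxa3 average -0.066, and no member was called. With only the groups compared, Sox9 under gemcitabine in wild-type mice gave 0.0064.

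With the sex covariate the values that changed sign were Hnf4a 0.062 and Foxa1 0.99 for untreated genotype, Foxa1 1.67 and Pdx1 0.32 for treated genotype, Foxa1 -0.0044 for gemcitabine in wild-type mice, Foxa1 0.67 and Trp63 0.45 in heterozygous mice, Foxa1 0.68 for the difference, and Foxa1 1.33 and Sox9 0.044 for the average. The class effect in this fit was estimated from the untreated libraries alone, because neither treated group held both classes.

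Leaving out 1 library changed the sign of 16 values. Foxa1 ranged from -1.41 to 3.55 for untreated genotype, -0.55 to 4.56 and -0.63 to 0.28 for gemcitabine in wild-type and heterozygous mice, -4.79 to 0.32 for the difference and -1.33 to 1.15 for the average. Sox9 ranged from -0.16 to 0.38, -0.65 to 0.13, -0.57 to 0.22 and -0.30 to 0.15 for untreated genotype, treated genotype, gemcitabine in wild-type mice and the average. Foxa2 ranged from -0.13 to 0.59 for untreated genotype and -0.20 to 0.51 for gemcitabine in wild-type mice, and Gata6 from -0.50 to 0.13 for the latter. Hnf4a ranged from -0.32 to 0.30 for untreated genotype and the Foxa3 average from -0.14 to 0.26. Pdx1 ranged from -0.63 to 0.22 and Trp63 from -2.03 to 0.90 for gemcitabine in heterozygous mice. The Gata6, Hnf4a and Foxa2 values for treated genotype kept their sign in every alternative run, at -1.63 to -1.05, -1.27 to -0.78 and -1.36 to -0.65 without 1 library. The run with the sex covariate does not separate genotype from sex in treated mice. Trp63 had under 30 counts in 11 of 12 libraries, and its untreated heterozygous counts of 5 to 146 show a spread between mice.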

Other observations

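Other neighbours of the members were looked at after the values were seen. Gm27033, a predicted gene on the same strand as Pdx1 and 4872 bases beyond its end, had the highest r with Pdx1 of the 17542 genes compared (0.960; rho = 0.888; 0.900 without the 2 tumours farthest from the median of Pdx1). It had 9 to 29 counts in untreated wild-type tumours and 32 to 167 counts in the other 9. Ttc6, which starts 17197 bases from Foxa1 on the opposite strand, had an r of 0.886 with it (rho = 0.874; 0.854 without 2 tumours), and 7 genes had a higher one. In untreated wild-type tumours Ttc6 had 487, 9 and 33 counts where Foxa1 had 831, 14 and 14. Both pairs also varied together within the Xist libraries (0.959 and 0.853) and within the Y-linked libraries (0.975 and 0.943). What links these neighbours was not tested.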
